A study of Mus musculus with 5 samples.

Results

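Libraries made with an antibody to 5-hydroxymethylcytosine (5hmC) and with an antibody to 5-methylcytosine (5mC) were compared directly, read for read, in mouse embryonic stem cells. These were 2 of the 5 libraries of the series, taken by their labels as hMeDIP (5hmC antibody from Active Motif) and MeDIP (5mC antibody from Diagenode), and no input was used as a divisor. Both came from E14 clones of the SIGTR gene-trap library at passages 11 to 14, grown without feeders in DMEM with leukaemia inhibitory factor (LIF) and 10% fetal calf serum. Which clones were used, and how many went into each library, was not given in the sources used here. The other libraries, read here only beside the antibody libraries, were MethylCap eluates at 600 mM and 800 mM NaCl from the same kind of clones, and an input of chromatin DNA from TNG-A cells, an E14 derivative carrying EGFP at Nanog. That input differs from the antibody libraries in both line and preparation. There was 1 library per side, so no test between the marks was possible, and every difference below is between 2 libraries.

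5mC is written mostly at CpG sites by DNA methyltransferases, and the Tet dioxygenases oxidise part of it to 5hmC, so that 5hmC arises where 5mC was laid down. Embryonic stem cells express Tet enzymes and hold more 5hmC than most cultured cells. Pulldown with an antibody enriches denatured, single-stranded fragments that carry many modified bases, whereas the methyl-CpG binding domain used in MethylCap binds methylated CpG in double-stranded DNA and binds 5hmC poorly. A pulldown reports where a mark lies relative to the rest of the same library, not how many bases carry it.

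On autosomes, hMeDIP held 18154810 reads and MeDIP 10260899. Reads were placed by their midpoint in bins of 1 kb, 10 kb and 100 kb on chromosomes 1 to 19 and scaled to the depth of each library on these chromosomes (RPM). The antibody ratio of a bin was (hMeDIP RPM + 0.5)/(MeDIP RPM + 0.5), so a ratio of 1 means the same share of each library. Bins in which both libraries together reached 1 RPM were compared, and a bin counted as higher with 1 antibody past 3-fold at 1 kb, 2-fold at 10 kb and 1.5-fold at 100 kb. Intervals in parentheses are exact 95% intervals of the raw read ratio and carry counting error alone. For regions named for their large ratios, which were chosen on the same reads, the intervals are not adjusted for that choice. Reads that lack molecular identifiers cannot be counted as independent molecules. Positions are in mm9.

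Both directions held about the same number of bins at every scale. Each library was scaled to its own total, so the summed ratio over all bins is 1 by construction. The near balance is thus partly set by the scaling. At 1 kb, 12158 bins were higher with the 5hmC antibody (1.85% of 657362 compared) and 10224 with the 5mC antibody (1.56%). At 10 kb the counts were 8689 (3.74% of 232380) and 7057 (3.04%), and at 100 kb they were 682 (2.86% of 23833) and 632 (2.65%). The 5hmC side was thus somewhat the larger at each of these thresholds, but ratios centred on their median turned the order at 1 kb and 100 kb (count ratios of 0.954 and 0.828), as a pseudocount of 1 RPM did at 1 kb (0.527). The order turned at higher ratios, where the extremes lay on the 5mC side. Past 5-fold, 236 bins of 1 kb were higher with the 5hmC antibody and 409 with the 5mC antibody, and at 10 kb there were 5 and 42, of which 5 and 25 had at least 3 input reads per kb. At 100 kb no bin passed 4-fold on the 5hmC side and 2 did on the 5mC side, neither of them with 3 input reads per kb. With 2-fold as a common threshold, the bins higher with the 5hmC antibody fell from 10.2% at 1 kb to 3.74% at 10 kb and 0.18% at 100 kb. Those higher with the 5mC antibody went from 10.1% to 3.04% and 0.138%. The last shares were 43 and 33 windows, of which 41 and 13 had at least 3 input reads per kb. The near balance of these windows was thus lost among covered ones. The 2-fold shares are over unlike sets, since the 1 RPM minimum was not scaled to bin width. It kept 657362 of 2472334 bins at 1 kb, 232380 of 247241 at 10 kb and 23833 of 24731 at 100 kb. Counting error also falls with bin width, and its part in the fall of the shares was not tested.

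When hMeDIP was thinned at random to the depth of MeDIP, both sides came closer together at 1 kb past 3-fold and at 10 kb past 2-fold. At 1 kb, 13980 bins (2.17% of 645363) were then higher with the 5hmC antibody and 13163 (2.04%) with the 5mC antibody. At 10 kb the counts were 9056 (3.9%) and 8179 (3.52%), and at 100 kb they were 735 (3.08%) and 666 (2.79%). The ratio of the counts of both sides moved from 1.19 to 1.06 at 1 kb and from 1.23 to 1.11 at 10 kb. Past 3-fold at 10 kb, the small majority on the 5hmC side (774 against 637) became a near tie (850 against 862). At the common 2-fold threshold the sides instead moved apart at 1 kb, where the ratio of the counts went from 1.01 to 1.08. The thinned shares at this threshold were 10.7% and 9.93% at 1 kb and 0.189% and 0.134% at 100 kb.

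The antibody ratio was distributed around 1, as the scaling to library totals favours. Its spread was about the same at 1 kb and 10 kb and smaller at 100 kb. Over bins with at least 3 input reads per kb, the middle 90% of log2 ratios ran from -0.83 to 0.93 at 1 kb, from -0.85 to 0.92 at 10 kb and from -0.48 to 0.51 at 100 kb. The standard deviation over bins was 0.54 at 1 kb, 0.54 at 10 kb and 0.30 at 100 kb. A typical 1 kb bin held 5 hMeDIP and 3 MeDIP reads, and with so few reads the added 0.5 RPM holds the ratio near 1. With 0.1 RPM in its place the standard deviation also fell from 1 kb to 10 kb, at 1.06, 0.62 and 0.31.

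**Figure D1:**
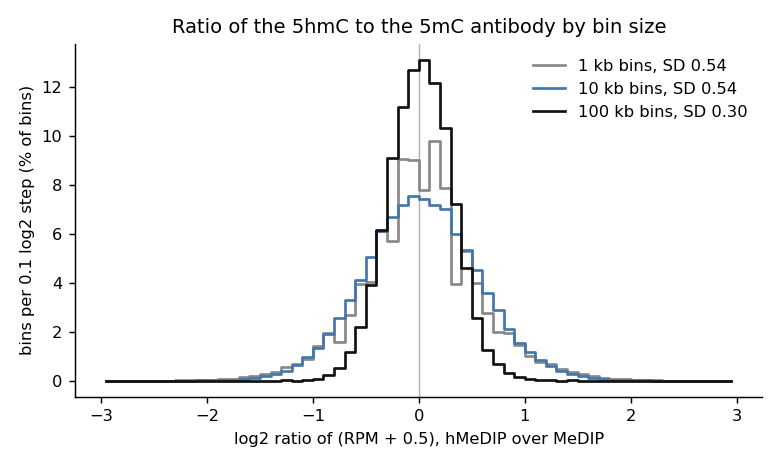
Distribution of the log2 antibody ratio (x axis, hMeDIP over MeDIP, RPM + 0.5) in bins with at least 3 input reads per kb; the y axis gives the percentage of bins per 0.1 log2 step. The curves for 1 kb and 10 kb bins have the same SD of 0.54 and that for 100 kb bins has 0.30; the teeth of the 1 kb curve come from small whole read numbers.

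To ask how much of the ratio was more than counting error, reads of the plus and the minus strand were treated as separate counts of the same libraries. The log2 ratios of both strands correlated across bins with r = 0.26 at 1 kb (2075198 bins), 0.39 at 10 kb (226828 bins) and 0.64 at 100 kb (23366 bins). The bins share library and depth, and the strands are not replicates. The standard deviation common to both strands was 0.33, 0.41 and 0.27 log2 units. Bins chosen on plus-strand reads alone were then read on the minus strand, which the choice had not used. At 1 kb, 81.0% of 27713 bins chosen as higher with the 5hmC antibody leaned the same way on the other strand, with a summed ratio of 2.44-fold. On the 5mC side 72.9% of 24713 bins did, at 2.34-fold. At 100 kb the shares were 90.4% of 1082 bins and 95.2% of 873 bins, at 1.49-fold and 1.45-fold. Over all bins compared, 50.1% at 1 kb and 51.5% at 100 kb leaned to 5hmC on the minus strand. The direction of most chosen bins was thus found again in reads not used to choose them, with a smaller size than the threshold.

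Runs of neighbouring bins past the threshold were mostly 1 bin long, which the small share of bins past it favours under any placement. The share under unrelated placement was not computed. Of the runs of neighbouring 1 kb bins, 95.7% on the 5hmC side and 96.1% on the 5mC side were 1 bin long. At 10 kb the shares were 87.8% and 91.1%. The longest runs at 1 kb differed between the sides, with 3 bins on the 5hmC side and 9 on the 5mC side. At 10 kb the order turned, with longest runs of 11 and 9 bins, and runs of 3 or more bins numbered 240 and 88. At 100 kb the longest runs were 3 and 5 bins. Neighbouring bins nevertheless leaned the same way. Log2 ratios of adjacent bins, which share no read, correlated with r = 0.21 at 1 kb, 0.25 at 10 kb and 0.40 at 100 kb. Between 100 kb bins the correlation was 0.12 at a distance of 1000 kb and 0.0037 at 10000 kb.

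The small bins sat in surroundings of the same lean. With its own reads taken out, the 10 kb around a 1 kb bin leaned the same way for 74.8% of the bins on the 5hmC side and 76.3% on the 5mC side. For the surrounding 100 kb the shares were 69.6% and 73.8%, against 48.5% and 51.5% over all 1 kb bins compared. The surrounding ratio was far smaller than that of the bin itself, which the choice of the bin favours. Summed over the surrounding 100 kb, it was 1.14-fold on the 5hmC side and 0.874-fold on the 5mC side. Some windows held both kinds of bin. Of 23833 windows of 100 kb, 4439 (18.6%) held only 1 kb bins higher with the 5hmC antibody. Another 4114 (17.3%) held only bins higher with the 5mC antibody, 2568 (10.8%) held both and 12712 (53.3%) held neither. Whether the share with both differs from that of unrelated placement was not tested.

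The 1 kb bins with the largest ratio on the 5hmC side were bins with no or almost no MeDIP read. The first, on chromosome 16 at 59529001–59530000, had 78 hMeDIP reads (4.30 RPM), whereas MeDIP had 0. With 3 reads counted in place of the 0, the raw ratio was 14.7-fold. The lower limit of the exact 95% interval, which also carries the counting error of the hMeDIP reads, was 11.7-fold. Its 600 mM and 800 mM MethylCap reads were 21 and 18, at 2.03 and 2.43 RPM. Similar bins lay on chromosome 15 at 25709001–25710000 (62 reads), on chromosome 1 at 59577001–59578000 (60 reads) and on chromosome 4 at 115761001–115762000 (57 reads), all with 0 MeDIP reads. Each of these 4 bins held between 10 and 15 input reads and 8 to 22 reads of each MethylCap eluate, so other libraries had reads there. The enclosing 10 kb bins, with the reads of these bins included, differed in lean. They were at 3.85-fold and 3.05-fold for the bins on chromosomes 15 and 1, but at 1.21-fold and 1.19-fold for those on chromosomes 16 and 4.

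The second bin in this order was of another kind. On chromosome 5 at 117521001–117522000, 140 hMeDIP reads (7.71 RPM) stood against 4 MeDIP reads (0.390 RPM), a raw ratio of 19.8 (7.56 to 73.6). It held no read of either MethylCap eluate and 3 input reads. Of its hMeDIP reads 138 lay on the minus strand and 2 on the plus strand, whereas the first bin held 51 on the plus and 27 on the minus strand. It was also narrow, since it held 53.2% of the hMeDIP reads in the 11 bins centred on it.

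On the 5mC side the leading 1 kb bins were reached by the MethylCap capture as well. The first, on chromosome 7 at 134754001–134755000, had 76 MeDIP reads (7.41 RPM) and 1 hMeDIP read (0.0551 RPM), with 236 reads at 600 mM and 75 at 800 mM. On chromosome 15 at 72640001–72641000 there were 95 MeDIP and 4 hMeDIP reads, with 521 and 132 reads of the eluates. Their raw MeDIP to hMeDIP ratios were 134.5 (23.4 to 5380) and 42.02 (15.9 to 157.4). The next 3, with raw ratios of 14.04 to 22.7, lay on chromosome 9 at 63206001–63207000, chromosome 2 at 170410001–170411000 and chromosome 17 at 25228001–25229000. They held 77, 76 and 119 MeDIP reads against 6, 6 and 15 hMeDIP reads, and 85, 26 and 41 reads at 600 mM. The bin on chromosome 9 again was read from 1 strand, with 76 of 77 MeDIP reads on the minus strand, whereas the bin on chromosome 17 held 56 on the plus and 63 on the minus strand. The 10 kb bins enclosing these 5, their own reads included, were at 0.199-fold to 0.472-fold.

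At 10 kb the largest ratios were smaller, and both strands contributed to them. Chromosome 3 at 34560001–34570000 came first on the 5hmC side, with 195 hMeDIP against 11 MeDIP reads, a raw ratio of 10.02 (5.48 to 20.4), with 96 hMeDIP reads on the plus and 99 on the minus strand. The others were on chromosome 17 at 37140001–37150000 (180 and 15 reads), chromosome 14 at 106290001–106300000 (56 and 2), chromosome 11 at 4200001–4210000 (283 and 27) and chromosome 18 at 75530001–75540000 (181 and 16). Input was dense in these bins, with 90 to 169 reads against a median of 75. On the 5mC side the first was on chromosome 6 at 122060001–122070000, with 92 MeDIP and 14 hMeDIP reads, a raw ratio of 11.6 (6.59 to 22.1). Next came chromosome 2 at 30080001–30090000 (147 and 29 reads), chromosome 10 at 82880001–82890000 (123 and 23), chromosome 2 at 76580001–76590000 (209 and 48) and chromosome 14 at 95040001–95050000 (56 and 8). These bins held 30 to 75 input reads, at or below the median, and 58 to 400 reads of the 600 mM eluate.

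The 100 kb windows with the highest 5hmC share were raised over their whole length. Highest was chromosome 7 at 140200001–140300000, with 2079 hMeDIP reads (114.5 RPM) and 408 MeDIP reads (39.8 RPM), a ratio of 2.88-fold (2.59 to 3.21), and 2.90-fold after thinning. It was followed by windows on chromosome 15 at 79700001–79800000 (2.80-fold, 2.49 to 3.16), chromosome 2 at 74500001–74600000 (2.77-fold, 2.44 to 3.16), chromosome 6 at 52100001–52200000 (2.71-fold, 2.42 to 3.05) and chromosome 3 at 88300001–88400000 (2.56-fold, 2.30 to 2.87). In each of these 5 windows all 10 bins of 10 kb were above 1, from a lowest of 1.34-fold to a highest of 4.85-fold. The windows were chosen on the sum of these same reads, so this is a description. They held 4 to 7 1 kb bins past 3-fold for 5hmC and none for 5mC. MeDIP was not low there, at 27.8 to 39.8 RPM against a median of 36.0 RPM over all windows compared. hMeDIP was at 76.9 to 114.5 RPM against a median of 34.4. Between the antibody libraries, the windows thus stood out by a high share of hMeDIP reads beside an ordinary share of MeDIP reads. MethylCap was also above its medians there, at 38.7 to 76.6 RPM against 30.8 RPM at 600 mM. At 800 mM it was at 46.8 to 93.6 RPM against 28.9 RPM. Input was at 40.1 to 62.3 RPM against 40.8 RPM.

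On the 5mC side, 2 of the 5 leading windows were the first covered windows of their chromosomes. These were chromosome 4 at 3000001–3100000, with 313 hMeDIP and 551 MeDIP reads (MeDIP 3.11-fold of hMeDIP, 2.71 to 3.59), and chromosome 9 at 3000001–3100000, with 2780 and 4175 reads (2.66-fold, 2.53 to 2.79). The window on chromosome 9 was dense in every library, with 2724 input reads against a median of 731, and the part of this density in its ratio was not tested. The others were chromosome 2 at 76500001–76600000 (1085 and 1620 reads, 2.64-fold, 2.44 to 2.86), chromosome 9 at 117600001–117700000 (2.60-fold, 2.33 to 2.90) and chromosome 7 at 74100001–74200000 (2.41-fold, 2.12 to 2.75). The antibody ratio was below 1 in all 10 of the 10 kb bins in both windows on chromosome 9. It was also below 1 in all 10 on chromosome 7 and in 9 of 10 in the other 2 windows. In the windows at 3000001–3100000 on chromosomes 4 and 9, many of these bins had under 3 input reads per kb. On chromosome 4 the bin above 1 was among them. The windows were chosen on the sum of these same reads, so the counts are a description.

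The window on chromosome 2 at 76500001–76600000 was the densest cluster of differences on either side. It held 21 1 kb bins past 3-fold for 5mC and none for 5hmC, whereas the next windows on that side, on chromosome 6 at 113700001–113800000 and chromosome 8 at 124700001–124800000, held 9 each. Its core was a run of 9 such bins at 76575001–76584000, with 326 MeDIP reads against 69 hMeDIP reads (8.36-fold, 6.43 to 11.0) and 364 and 312 reads of the MethylCap eluates. At 10 kb the run covered 76550001–76640000, and at 100 kb it covered 76300001–76800000, with 5029 MeDIP and 4722 hMeDIP reads (1.88-fold, 1.81 to 1.96). The difference was thus present at all 3 scales in this region. The densest window on the 5hmC side, on chromosome 18 at 75500001–75600000, held 15 1 kb bins past 3-fold for 5hmC and none for 5mC, at 1.90-fold (1.75 to 2.06).

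**Figure D2:**
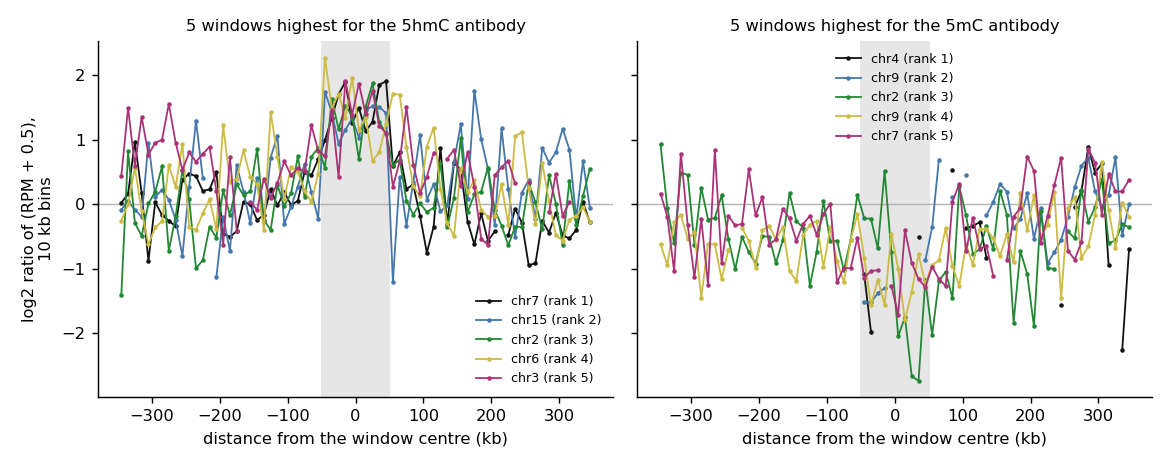
Log2 antibody ratio in 10 kb bins (y axis) against the distance from the centre of the 5 windows of 100 kb with the largest ratio on each side; grey marks the chosen window, bins with under 3 input reads per kb are left out, and windows at a chromosome start have no values to their left. Inside the grey area all 10 kb bins of the 5hmC windows lie above 0 (1.34-fold to 4.85-fold), and outside it the ratio varies around lower values.

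Around the chosen 1 kb bins of both sides a shallow lean in the same direction reached at least 20 kb. The centre bins chose the sets and are a description. The drop from the centre to the next bin is in part set by that choice, so it does not measure how wide the difference was. On the 5hmC side mean hMeDIP was 2.02 RPM in the centre, 1.00 RPM in the bin before it, 0.839 RPM at 2 kb and 0.733 RPM at 20 kb. MeDIP, low in the centre by the choice, was 0.576 RPM in the bin before it and 0.651 RPM at 20 kb. On the 5mC side mean MeDIP was 2.53 RPM in the centre, 0.925 RPM in the bin before it, 0.805 RPM at 2 kb and 0.666 RPM at 20 kb, and hMeDIP was 0.583 RPM at 20 kb. In the flanks, away from the bins that made the choice, the antibody ratio at 10 kb before the centre was 1.16-fold on the 5hmC side and 0.842-fold on the 5mC side.

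**Figure D3:**
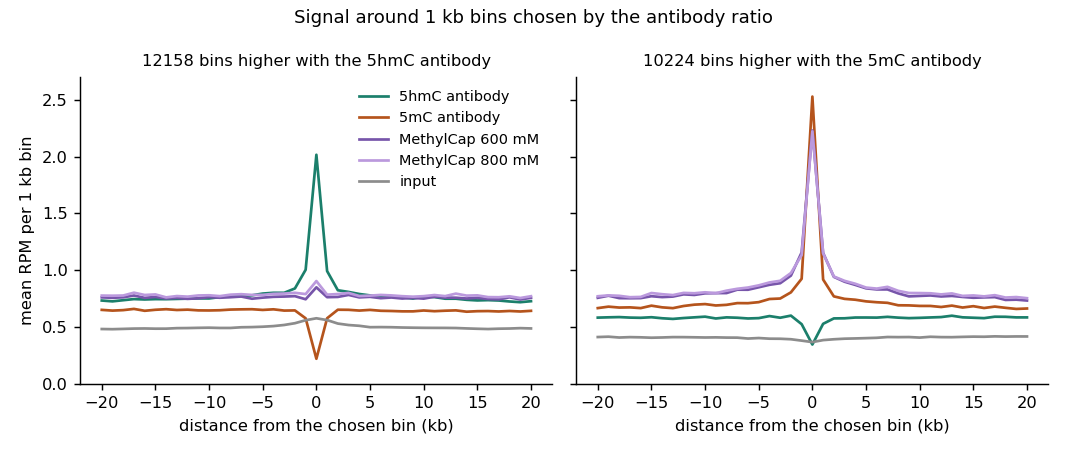
Mean RPM per 1 kb bin (y axis) in the 5 libraries by distance from 1 kb bins chosen as at least 3-fold higher with either antibody (x axis, kb); the centre value of both antibody libraries is set by the choice. MethylCap signal peaks with the 5mC antibody in the right panel (2.23 RPM at 600 mM) and is nearly flat in the left panel (0.849 RPM).

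The MethylCap eluates, which had no part in the choice, separated the sides. Over the bins higher with the 5mC antibody at 1 kb, the median was 1.74 RPM at 600 mM and 1.89 RPM at 800 mM, against 0.774 and 0.674 RPM over all bins compared. Over the bins higher with the 5hmC antibody it was 0.677 and 0.674 RPM, near the level of all bins. At 100 kb the picture was different, since both sides lay in windows rich in MethylCap reads. There the 600 mM median was 48.9 RPM on the 5hmC side and 63.9 RPM on the 5mC side, against 30.8 RPM over all windows compared. Bins without any 600 mM read made up 6.88% of the 5hmC side and 0.538% of the 5mC side at 1 kb, against 7.60% of all bins compared.

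Input reads moved with the antibody ratio, although input took no part in it. At 1 kb the median input was 0.561 RPM in bins higher with the 5hmC antibody, 0.336 RPM in those higher with the 5mC antibody and 0.392 RPM over all bins compared. At 10 kb the medians were 5.38, 3.42 and 4.15 RPM, and at 100 kb they were 54.6, 34.7 and 40.8 RPM. When 10 kb bins were ordered by input reads and split into 10 equal groups, the summed antibody ratio rose at every step from 0.826-fold in the lowest group (0 to 46 reads) to 1.34-fold in the highest (109 to 2361 reads). In that highest group 13.7% of bins were higher with the 5hmC antibody and 0.594% with the 5mC antibody, whereas the lowest held 2.07% and 8.12%. Of the bins higher with the 5mC antibody, 11.6% at 10 kb and 13.1% at 100 kb had fewer than 3 input reads per kb, against 2.92% and 1.97% of all bins compared. A larger share of the 5mC side thus lay where input reads were few. The part of input density in the antibody ratio was not tested.

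The antibody ratio changed less with the strength of the antibody signal itself. Ordered by the mean RPM of both antibodies at 100 kb, the summed ratio was 1.11-fold in the lowest of 10 equal groups, 0.950-fold in the sixth and 1.02-fold in the highest. At 1 kb only the highest group, with a mean of 1.71 RPM or more, stood below the rest, at 0.924-fold against 0.998-fold to 1.04-fold in the others. In that group 3.93% of bins were higher with the 5mC antibody and 2.00% with the 5hmC antibody. This order used the same reads as the ratio and is a description.

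Many read-rich bins of both antibody libraries were covered mostly from 1 strand. Per the labels' protocols, adaptor-ligated DNA was denatured before the antibodies were added, while no such step is named for MethylCap. Of 43088 bins of 1 kb with at least 40 hMeDIP reads, 17752 (41.2%) had 80% or more of these reads on 1 strand. In MeDIP this was 5039 of 8604 bins (58.6%), and in hMeDIP thinned to the same depth 4230 of 6675 (63.4%). The MethylCap eluates had 490 of 10215 bins (4.80%) at 600 mM and 24 of 5234 (0.459%) at 800 mM, and the input had 0 of 250, which allows a share of up to 1.2%. One-stranded coverage was thus a trait of the antibody libraries. It favoured neither strand, with 8875 bins on the plus and 8877 on the minus strand in hMeDIP.

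The one-stranded bins were common to both antibodies. Among 19079 bins with at least 40 hMeDIP and 20 MeDIP reads, 8743 (45.8%) were one-stranded in both libraries, and in all 8743 the strand was the same. A further 1885 bins (9.88%) were one-stranded in hMeDIP only and 2505 (13.1%) in MeDIP only. With the strands called from the reads of both antibodies together, 43739 bins with at least 40 reads were one-stranded and held 10.2% of hMeDIP and 9.98% of MeDIP reads. Their MethylCap median was 0.968 RPM at 600 mM, below the 1.65 RPM of the 71493 bins of the same read minimum covered from both strands, with medians of 1.98 and 1.93 RPM in hMeDIP.

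Summed over the one-stranded bins, the antibody ratio was 1.02-fold. Of these bins 2.27% were higher with the 5hmC antibody and 1.69% with the 5mC antibody, against 1.85% and 1.56% of all 1 kb bins compared. In bins of the same read minimum covered from both strands these shares were 5.19% and 2.53%, at a summed ratio of 1.10-fold. Among bins with 40 to 79 reads of both antibodies, 20.1% of those higher with the 5hmC antibody and 29.01% of those higher with the 5mC antibody were one-stranded, against 36.0% of bins higher with neither. Without the one-stranded bins and their reads, every count of bins in either direction stayed within 1.5 times its value. The libraries were then scaled to their remaining reads, and the 1 kb counts rose from 12158 to 15610 for 5hmC and from 10224 to 12219 for 5mC. At 100 kb both directions became equal in number (count ratio 1.00).

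**Figure D4:**
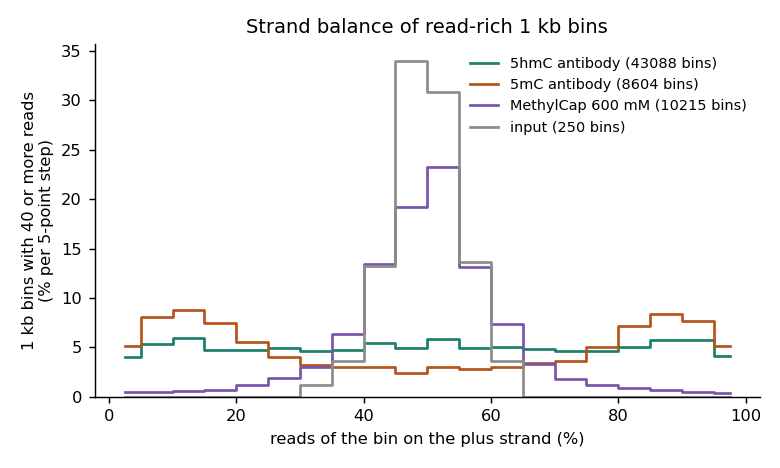
Percentage of a bin's reads on the plus strand (x axis) in 1 kb bins with at least 40 reads of the library named, as the percentage of such bins per step of 5 points (y axis). Input and MethylCap bins gather near the middle, while both antibody libraries spread to the edges (41.2% of hMeDIP and 58.6% of MeDIP bins have 80% or more of their reads on 1 strand).

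By whole chromosome the antibodies differed by a few percent. Chromosome 11 had the highest hMeDIP share relative to MeDIP, at 1.044-fold (1.041 to 1.048), followed by chromosome 7 at 1.031-fold and chromosome 4 at 1.027-fold. Chromosome 8 was lowest at 0.963-fold (0.959 to 0.966), then chromosomes 18 and 13 at 0.971-fold each. The 1 kb bins leaned the same way on the highest and the lowest chromosome. Chromosome 11 held 973 bins higher with the 5hmC antibody and 526 with the 5mC antibody, and chromosome 8 held 638 against 683. The order of the chromosomes was not kept throughout. Chromosome 19, at 1.003-fold, held 432 against 247 such bins, whereas chromosome 7 held 743 against 593. On 16 of 19 autosomes the 5hmC side held more 1 kb bins. At 100 kb only 8 of 19 did, so the small majority of 682 against 632 windows rested on fewer chromosomes, with 61 against 20 windows on chromosome 11 and 57 against 29 on chromosome 2.

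The distal ends of the autosomes stood apart more than whole chromosomes did. From 3 to 10 Mb before the last covered base, hMeDIP was 0.920-fold of MeDIP (0.918 to 0.923), and it was below 1 on 18 of 19 autosomes, with chromosome 11 as the exception at 1.027-fold. In this zone 104 of 1309 windows of 100 kb (7.95%) were higher with the 5mC antibody and 27 (2.06%) with the 5hmC antibody, against 2.65% and 2.86% on all autosomes. The lean went on past 10 Mb, with the lowest 1 Mb step at 0.878-fold, centred 10.5 Mb from the end, and 0.926-fold at 13.5 Mb. From 10 to 20 Mb the ratio was 0.956-fold (0.954 to 0.959), below 1 on 14 of 19 autosomes. The zone from 3 to 10 Mb was rich in methylation signal by each capture, with 7.96% of hMeDIP, 8.65% of MeDIP, 9.95% of 600 mM and 10.1% of 800 mM reads against 5.50% of input reads.

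The last 1 Mb went the other way. There hMeDIP was 1.09-fold of MeDIP (1.08 to 1.10) and above 1 on 15 of 19 autosomes, and 14 of 199 windows (7.04%) were higher with the 5hmC antibody. Chromosome 15 was highest at 1.49-fold (1.44 to 1.55) and held 5 of these 14 windows, and without it the summed ratio was 1.06-fold. The reads of this zone were 0.661% of hMeDIP, 0.605% of MeDIP and 0.565% of 600 mM reads, against 0.821% of input. At the other end, the first 1 Mb of covered sequence was at 0.938-fold, from 0.602-fold on chromosome 9 to 1.29-fold on chromosome 7, and at 0.969-fold without chromosome 9. From 1 to 3 Mb the ratio was 1.04-fold, so the lean toward 5mC at this end did not reach past the first 1 Mb.

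**Figure D5:**
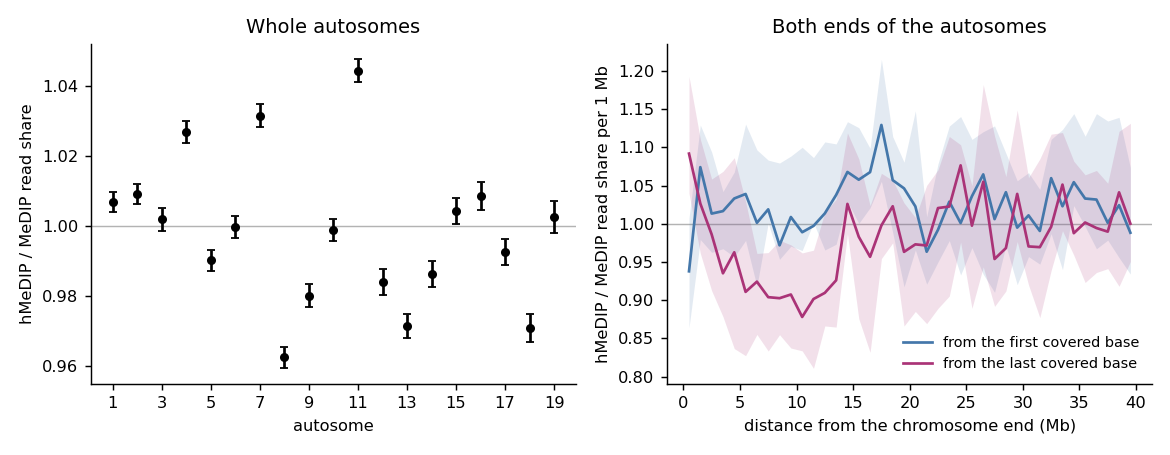
Left, hMeDIP over MeDIP read share of each autosome with exact 95% intervals for counting error; right, the summed ratio per 1 Mb (y axis) by distance from the first or last covered base of the 19 autosomes (x axis), with shading for the middle 50% of autosomes. The left panel spans 0.963-fold to 1.044-fold, and in the right panel the zone from 3 to 10 Mb before the last base lies below 1 while the last 1 Mb lies at 1.09-fold. The lean below 1 goes on to 13.5 Mb. The y axes do not start at 0.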

How the data were processed

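Each line of a deposited file is an aligned read of 35 bp with its mm9 position and strand. Reads were aligned with BWA 0.5.8, per the submitters' processing notes. Column 5 is a read count and is 1 in every line the authors deposited. Column 4, not explained in the labels, is 0 for every read of both antibody libraries and 1 for 7.88 to 8.38% of reads in the other 3. In both antibody libraries a position had at most 1 read per strand, which caps dense signals.

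From these reads, bins, RPM, ratios, exact (Clopper-Pearson) intervals and a thinned hMeDIP library (seed 1) were computed with Python 3.11.15, numpy 2.4.6 and scipy 1.17.1, after a check on simulated counts. Total reads were 7539403 to 18722723 per library. Input served as a coverage filter (3 reads per kb) and a readout. Regions named are the 5 largest ratios per scale and direction among covered bins (at 1 kb with at least 20 reads in the higher library), none within 100 kb of another (1 Mb for 100 kb bins), and the 3 extreme autosomes per side. The longest runs and densest windows were named after their values were seen. The libraries, scales, thresholds and alternatives were chosen with earlier results of these data known. The strand-balance analysis was added after the data were seen. No gene was named and no sequence printed, since the gene tables used here are of build GRCm38 and the reads are in mm9.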

Additional observations from a re-analysis of the deposited data

Results flagged for a closer look

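Reads outside chromosomes 1 to 19 took no part in the comparison, and some were above the level of the input. Chromosome Y held 195.2 RPM, scaled to autosomal reads, in hMeDIP and 217.5 in MeDIP against 5.04 in the input, which is from another line. Unplaced sequence held 1742 RPM in hMeDIP and 3801 RPM in MeDIP against 1576 RPM in the input, so that hMeDIP was 0.458-fold of MeDIP there (0.452 to 0.465).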

How the results depend on the processing

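With 1 library per side nothing here has a replicate check, and no paired analysis was possible because each group holds a single library. Of 66 alternative counts of bins, 44 stayed within 1.5 times the value reported. These include all of those with thinned reads, median centring, moved reads, moved bin edges, the input filter and the one-stranded bins left out. They also include a fold of 2 at 10 kb, which is the reported setting itself and could not differ. The counts beyond 1.5 times follow, 5hmC side first. With a pseudocount of 0.1 RPM they were 60613 and 55261 at 1 kb and 13947 and 11011 at 10 kb, and with 1 RPM they were 677 and 1284 and then 5320 and 4216. Plus-strand reads alone gave 27713 and 24713 at 1 kb, 15624 and 12849 at 10 kb and 1082 on the 5hmC side at 100 kb, and minus-strand reads gave 28433 and 24777, 15716 and 12762, and 1078. A fold of 2 gave 67060 and 66138 at 1 kb and 43 and 33 at 100 kb. The majority turned to the 5mC side at 1 kb with a pseudocount of 1 RPM (ratio of the counts 0.527) and when ratios were centred on their median (0.954 at 1 kb, 0.828 at 100 kb). Which side holds more bins thus depends on the setting. Leaving out one-stranded bins was chosen after seeing the data.

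The standard deviation of the log2 ratio, at 1 kb, 10 kb and 100 kb, was 0.57, 0.56 and 0.31 with thinned reads, 1.06, 0.62 and 0.31 with 0.1 RPM, and 0.56, 0.56 and 0.31 without one-stranded bins. With 1 RPM it was 0.37 at 1 kb and 0.48 at 10 kb, and with moved reads 0.55 at 1 kb. The correlation of both strands was 0.23, 0.35 and 0.61 with thinned reads and 0.19, 0.35 and 0.63 with 0.1 RPM. With 1 RPM it was 0.29 at 1 kb and 0.42 at 10 kb, with moved reads 0.28 at 1 kb, and without one-stranded bins 0.40 at 10 kb and 0.66 at 100 kb. Chromosome 11 was at 1.048-fold over covered bins. The zone from 3 to 10 Mb before the distal end was at 0.917-fold on plus-strand and 0.924-fold on minus-strand reads. With thinned reads, the 600 mM median of called 1 kb bins was 0.75 times that of all bins compared on the 5hmC side and 2.13 times on the 5mC side, against 0.875 and 2.25. The cause of these shifts was not tested, apart from the read number and pseudocount that the settings themselves change.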

Other observations

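Between the antibodies, chromosome X was at 1.13-fold (1.13 to 1.14) of the autosomal hMeDIP to MeDIP ratio, with 364930 and 181912 reads. Mitochondrial DNA was at 1.46-fold (1.40 to 1.52), with 8300 and 3211 reads. Both lay outside the range of the 19 autosomes, which was 0.963-fold to 1.044-fold.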
